A study of Mus musculus with 24 samples.

Results

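Neuronal regions of the retina were compared with microvascular endothelial regions of the kidney (renMECs) in non-diabetic mice. The members were chosen by their sample titles alone: the 3 regions titled as non-diabetic retinal neuronal cells and the 3 titled as non-diabetic renal MEC, which are 6 of the 24 regions in all. The other 18 regions were 3 diabetic neuronal, 3 diabetic renMEC, 3 non-diabetic and 3 diabetic retinal microvascular (retMEC), 3 non-diabetic cardiac microvascular (carMEC) and 3 diabetic heart regions, of which the labels of the last name MECs for only 1. All groups came from male C57BL/6J mice. Non-diabetic mice received citrate buffer alone at 8 weeks of age, and diabetic mice received streptozotocin, a toxin of the insulin-producing beta cells, at 50 mg/kg over 5 days. Tissue was taken 2 months after the injections. A region is an area of a fixed, paraffin-embedded section chosen under the microscope: areas stained for NeuN, a nuclear protein of neurons, in the retina, and areas stained for CD31, a surface protein of endothelial cells, in the kidney. Organ, stain and cell type therefore changed together between the compared groups, and their parts in a difference cannot be told apart. With 3 mice per condition and no label that says which mouse a region came from, a neuronal and a renMEC region may share a mouse, and p-values then cover only the spread between these regions.

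Retinal neurons carry the visual signal from the photoreceptors through interneurons to the ganglion cells, whose axons form the optic nerve. NeuN is best known in the retina as a stain of ganglion cells and some amacrine cells, and the study did not separate the kinds of NeuN+ cell. The microvessels of the kidney include the fenestrated capillaries of the glomerulus, across which plasma is filtered, and the peritubular capillaries, which lie against the tubules and take up what they reabsorb. The GeoMx platform hybridises a panel of probes to the section and uses ultraviolet light to free the barcodes of a chosen area, which are then sequenced and counted. What is counted is thus RNA of the area, and more cells of a type cannot be told apart from more RNA per cell. Probes are identified by number and the tables used here pair 0 of these numbers with a gene symbol, so the labelled cell types could not be checked against their markers, and results are given by probe.

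All 6 regions were on 1 plate, in 1 sequencing run with the 12 other regions of that plate. Total counts were 372615, 788146 and 244551 in neuronal regions 1, 2 and 3, and 568886, 263315 and 1451915 in renMEC regions 1, 2 and 3. The depths of the groups overlapped, and the deepest and the shallowest of the 6 regions belonged to different groups. Between 95.5% and 96.6% of reads aligned to a probe in the neuronal regions and between 96.4% and 96.6% in the renMEC regions. The counts kept per 100 aligned reads were 25.9, 8.98 and 12.4 in the neuronal regions and 3.25, 3.60 and 3.79 in the renMEC regions, without overlap, and the part of this in the results was not tested. The 75th percentile of the counts over all 20186 probes was 16, 35 and 11 in the neuronal regions and 22, 11 and 53 in the renMEC regions. Most probes therefore rested on few counts. Levels are given below as scaled counts, which are counts divided by the 75th percentile of their region and multiplied by 9.76, the geometric mean of these percentiles over the 24 regions.

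Retinal neuronal regions differed from renMECs at 4738 of the 14012 probes tested (33.8%). Of these, 2239 probes (16.0% of those tested) were higher and 2499 (17.8%) were lower in neuronal regions, at an adjusted p under 0.05 (quasi-likelihood test of edgeR, Benjamini-Hochberg adjustment). The median log2 difference was 1.06 among the higher probes, or 2.08-fold, and -1.25 among the lower probes, or 2.38-fold, against 0.11 over all probes tested. The median standard error of the called differences was 0.27 for the higher and 0.26 for the lower probes. The scaled counts of the 3 neuronal and the 3 renMEC regions did not overlap for 5761 of the probes tested (41.1%), and for 89.1% of the probes called. The balance between the directions changed with the scaling: of the called probes 47.3% were higher in neuronal regions with the 75th percentile, 41.4% with TMM factors and 65.3% with scaling by the total count, which moved the median of all probes to 0.34. With DESeq2, which changes both the size factors and the test, 35.3% were higher. Without neuronal region 2, the deepest of its group, 1483 probes were higher and 2005 lower.

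**Figure D1:**
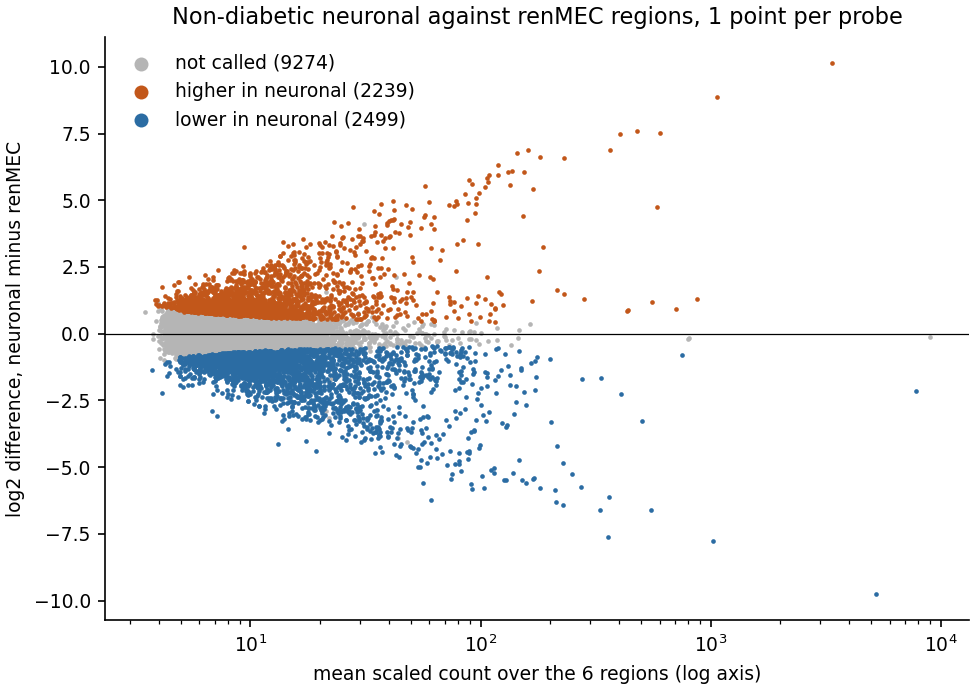
Log2 difference of non-diabetic neuronal over renMEC regions (vertical axis) against the mean scaled count of each of the 14012 probes tested (horizontal log axis), with the 2239 probes called higher and the 2499 called lower marked. Called probes lie on both sides of 0, and a larger share of the probes is called toward the right, where counts are higher.

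Large differences were fewer and ran in both directions. Over 4-fold, 299 probes were higher and 519 lower in neuronal regions, which is 13.4% and 20.8% of the called probes of each direction. Over 32-fold, 27 probes were higher and 31 lower, and over 100-fold 8 were higher and 3 lower. The probes over 4-fold higher in neuronal regions had a median level of 38.8 scaled counts there and 4.58 in renMECs, and 247 of the 299 lay below the renMEC median of all probes tested, 7.38. The probes over 4-fold lower had a median level of 44.9 scaled counts in renMECs and 5.91 in neuronal regions, and 387 of the 519 lay below the neuronal median of 7.75. Most of these probes thus lay under the typical probe in the tissue where they were lower, a range in which background counts and transcripts cannot be told apart, because the background probes are not identified here. No probe among them had 0 counts in all 3 regions of its lower group.

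The share of probes called rose with the level of the probe. It was 20.2% of the 9068 probes with a mean under 10 scaled counts, 50.9% of the 3418 between 10 and 20, and 72.6% of the 1125 between 20 and 50. Above 50 scaled counts it was 83.6% of 274 probes up to 100, 92.8% of 111 up to 500 and 81.3% of the 16 above 500. Direction differed along this range. Among probes under 10 scaled counts 1127 were higher and 709 lower in neuronal regions, whereas between 20 and 50 there were 275 higher and 542 lower, and between 50 and 100 there were 62 higher and 167 lower. A probe of low level that was not called may still differ, since few counts stand behind it at this depth.

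A pair of probes carried a large share of the neuronal counts and almost none of the renMEC counts. They are named, with a pair of the opposite direction, because they had the smallest p among probes whose groups did not overlap; their differences are therefore a description of the extremes. RTS0067937 had 4018, 6852 and 2268 counts in neuronal regions 1, 2 and 3 and 7, 6 and 27 counts in renMEC regions 1, 2 and 3. In scaled counts the means were 2125 ± 287 (SD, n = 3) and 4.47 ± 1.19 (SD, n = 3), a log2 difference of 8.87 with a standard error of 0.27. Each neuronal region was far above each renMEC region, although renMEC region 3 was the deepest of the 6.

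RTS0075449 had 11901, 20412 and 8230 counts in the neuronal regions and 10, 2 and 45 in the renMEC regions. Its scaled means were 6753 ± 918 (SD, n = 3) and 4.83 ± 3.27 (SD, n = 3), and its log2 difference of 10.13 with a standard error of 0.32 was the largest among the probes called higher. On its own it held 3.05% ± 0.41 (SD, n = 3) of the neuronal counts and 0.0019% ± 0.0012 (SD, n = 3) of the renMEC counts. The adjusted p by edgeR was 6.4e-30 for RTS0067937 and 1.0e-29 for RTS0075449.

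In the other direction RTS0080792 had 25, 34 and 15 counts in the neuronal regions and 28476, 7747 and 64663 counts in the renMEC regions. The scaled means were 12.7 ± 2.94 (SD, n = 3) and 10474 ± 3138 (SD, n = 3), with a log2 difference of -9.75, a standard error of 0.32 and an adjusted p of 3.0e-29 by edgeR. It held 4.13% ± 1.07 (SD, n = 3) of the renMEC counts. The renMEC regions were all high, with region 2 the lowest of the group after scaling, and no neuronal region came near them.

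RTS0061890 had 7, 14 and 2 counts in the neuronal regions and 1421, 779 and 4447 counts in the renMEC regions. Scaled means of 3.32 ± 1.35 (SD, n = 3) and 714 ± 96.2 (SD, n = 3) gave a log2 difference of -7.62 with a standard error of 0.26 and an adjusted p of 1.4e-28 by edgeR. The groups did not overlap, and the neuronal counts were too few to be told from background.

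**Figure D2:**
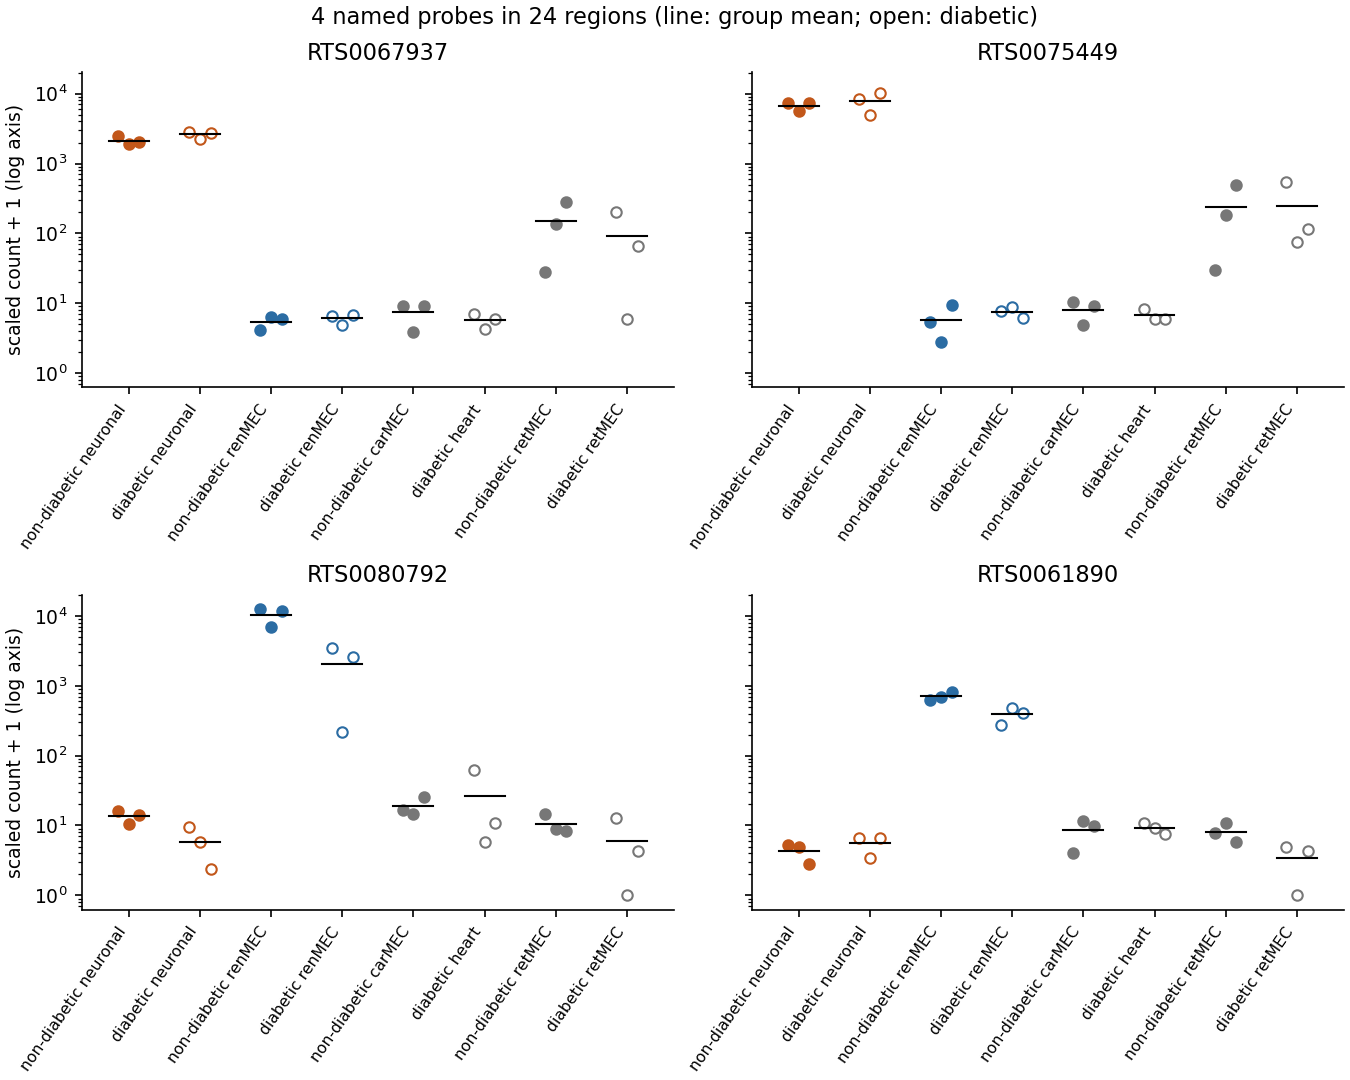
Scaled counts plus 1 (vertical log axis) of RTS0067937, RTS0075449, RTS0080792 and RTS0061890 in each of the 24 regions, by group, with each point 1 region, open for diabetic mice, and lines at group means. The first pair is high in the neuronal groups and below 10 scaled counts in every renMEC region, and the other pair is high in renMECs and low in neuronal regions, with 1 diabetic renMEC region at 218 scaled counts for RTS0080792.

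The probes called higher or lower held very different shares of the counts of the regions that were not used to choose them. The 2239 higher probes, 11.1% of all probes, took 32.6%, 32.1% and 31.1% of the counts in the non-diabetic neuronal regions and 8.22%, 8.23% and 7.48% in the non-diabetic renMEC regions, the values that chose them. In diabetic neuronal regions they took 32.9%, 31.6% and 32.9%, and in diabetic renMEC regions 9.11%, 9.56% and 9.04%. The diabetic groups were again far apart, with no overlap. The shares in non-diabetic carMECs, 10.9% ± 0.33 (SD, n = 3), and in diabetic heart regions, 10.3% ± 0.32 (SD, n = 3), were nearer to renMECs. They were also near the 11.1% that these probes make of all probes. The retMEC regions, on the other plate, gave 15.4% ± 3.42 (SD, n = 3) in non-diabetic and 16.3% ± 2.24 (SD, n = 3) in diabetic mice.

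The 2499 lower probes, 12.4% of all probes, took 13.8%, 13.7% and 13.9% of the counts in the non-diabetic neuronal regions and 47.0%, 44.7% and 48.1% in the non-diabetic renMEC regions. In diabetic neuronal regions their share was 13.5% ± 0.49 (SD, n = 3). In the diabetic renMEC regions it was 36.9%, 34.6% and 33.0%, above each neuronal region and below each non-diabetic renMEC region. Non-diabetic carMECs gave 24.2% ± 1.59 (SD, n = 3) and diabetic heart regions 25.3% ± 0.48 (SD, n = 3), between the renMEC and the neuronal values. The retMEC regions of the other plate gave 18.6% ± 4.04 (SD, n = 3) in non-diabetic and 22.0% ± 1.11 (SD, n = 3) in diabetic mice.

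**Figure D3:**
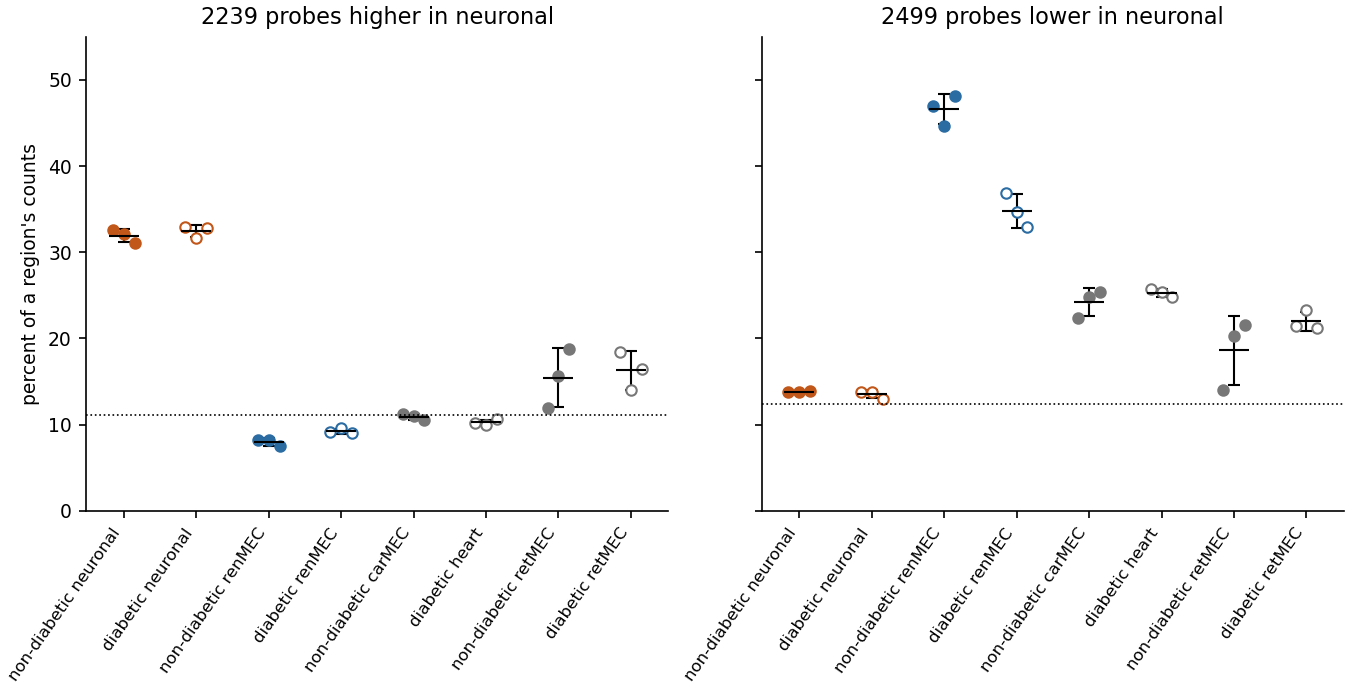
Share of a region's counts (%, vertical axis) in the 2239 probes called higher and the 2499 called lower in non-diabetic neuronal than renMEC regions, with each point 1 region, the groups along the horizontal axis, and lines and error bars for the mean and SD (n = 3). The higher probes stand at 31.1% to 32.9% in all 6 neuronal regions and under 10% in all 6 renMEC regions, and the lower probes stand at 44.7% to 48.1% in non-diabetic and 33.0% to 36.9% in diabetic renMEC regions.

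The most abundant probes of the tissues were mostly different ones. Of the 100 most abundant probes of non-diabetic neuronal regions and the 100 of renMECs, 21 were shared (21% of each list), and of the 1000 most abundant 417 (41.7%). Against 16.0% of all probes tested called higher and 17.8% called lower, these lists held mostly calls, and the abundance that chose them came from the same regions, which favours calls toward that tissue. Among the 100 of the neuronal regions 80 were called higher there, 10 were called lower and 10 were not called. Among the 100 of renMECs 89 were called lower in neuronal regions, 6 higher and 5 not called.

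The most abundant probe of the neuronal regions was among the 10 not called. It stood first in all 6 neuronal regions, with scaled counts of 10110, 7064 and 8438 in the non-diabetic ones, and it had 9007, 8814 and 10184 in the non-diabetic renMEC regions. The groups overlapped in these values. The probe was not particular to neuronal regions, since it also stood first in the 3 diabetic renMEC, the 3 diabetic heart and the 6 retMEC regions. The most abundant probe of non-diabetic renMECs had scaled counts of 12765, 9311 and 16067 there and 3277, 2402 and 2883 in the neuronal regions, without overlap. That probe was not listed in any of the 6 retMEC regions of the other plate, although it had at least 100 counts in each region of the shared plate. It is 1 of 11 probes that no retMEC region lists, and its level there is taken as unknown.

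The counts of a region were less concentrated in its leading probes in each non-diabetic neuronal region than in each renMEC region. The 100 most abundant probes of each region held 22.3%, 19.5% and 20.9% of its counts in neuronal regions 1, 2 and 3, and 24.96%, 23.7% and 27.0% in renMEC regions 1, 2 and 3. The regions did not overlap, and the means of 20.9% ± 1.37 (SD, n = 3) and 25.2% ± 1.64 (SD, n = 3) differed by -4.32 percentage points. An exact two-sided permutation test over the regions gave p = 0.10, the smallest that 3 against 3 can give. In diabetic mice the order was the opposite, with 25.5%, 25.3% and 26.9% in neuronal and 20.0%, 19.3% and 18.7% in renMEC regions, a difference of 6.54 percentage points (exact two-sided permutation test, p = 0.10, n = 3 and 3). The neuronal minus renMEC difference was 10.9 percentage points larger in diabetic mice, with p = 0.005 in an exact two-sided permutation test of condition within cell type, the smallest its 400 arrangements can give. The null of this test is no effect of condition in either cell type, which is more than equal differences in both conditions.

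**Figure D4:**
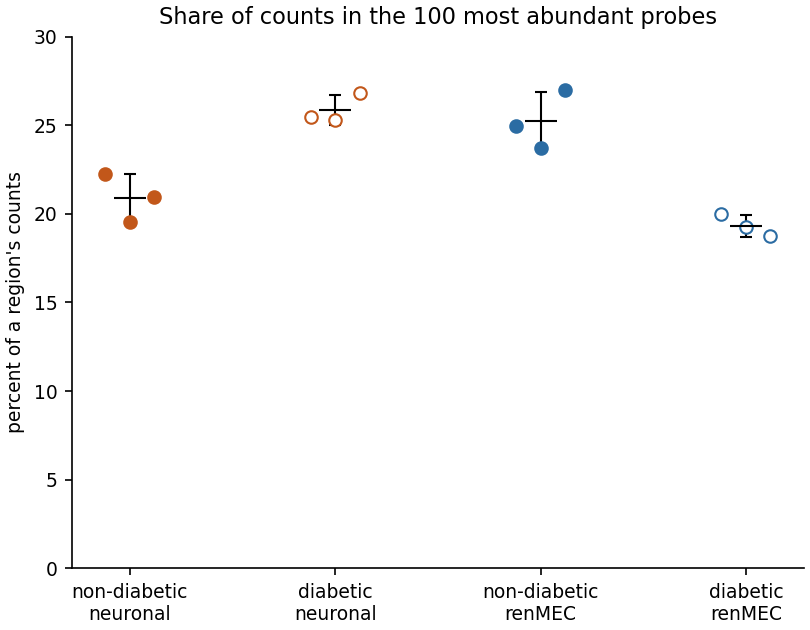
Share of a region's counts (%, vertical axis) in its 100 most abundant probes for the 4 neuronal and renMEC groups, with each point 1 region, the horizontal lines at group means and the error bars 1 SD (n = 3). Non-diabetic neuronal regions lie below non-diabetic renMECs, and diabetic neuronal regions, at 25.3% to 26.9%, lie above diabetic renMECs, at 18.7% to 20.0%.

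In non-diabetic mice the tissues differed by more than the replicates did on the whole profile. On log2(scaled count + 1) over the 14012 probes, non-diabetic neuronal regions lay on average 64.6 apart from each other, renMEC regions 64.9, and a neuronal from a renMEC region 130 (range 121 to 136). In the 12 neuronal and renMEC regions of both conditions, the nearest region was of the same cell type for 12 of 12. In diabetic mice replicates and tissues overlapped: neuronal regions lay on average 137 apart (range 105 to 153) and a neuronal from a renMEC region 155 (range 136 to 185). Without diabetic neuronal region 2 the remaining pair lay 105 apart and the tissues 140 (range 136 to 144.5). A non-diabetic neuronal region lay on average 111 from a diabetic one, or 92.3 without that region, and a non-diabetic renMEC region 78.6 from a diabetic one. The 14012 probes had passed the filter in the non-diabetic regions, whereas 3845 passed it in the diabetic ones. The median probe had 2 to 4 counts in diabetic and 7 to 23 in non-diabetic neuronal regions. Few counts add counting error to a distance, and its part in the diabetic distances was not tested.

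The same comparison was made in the diabetic mice, in 6 regions of the same plate that shared no region and no animal with the first. Total counts were lower there, from 78053 to 168298 in neuronal and from 217736 to 356967 in renMEC regions. Diabetic neuronal region 2 stood apart, with the fewest counts, 122833 reads and 66.7 counts per 100 aligned reads, so the counts of calls are given with and without it. The test covered 3845 probes and called 1684 (43.8%), of which 768 (20.0%) were higher and 916 (23.8%) lower in neuronal regions. The groups did not overlap for 52.3% of the probes tested. Without region 2 the test covered 7077 probes, with 883 higher and 1002 lower, and the groups did not overlap for 54.1%.

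Of the 2239 probes higher in non-diabetic neuronal regions, 915 could be tested in the diabetic mice and 658 of them (71.9%) were called higher again, against a background of 20.0% of all probes tested. The 658 are 29.4% of the non-diabetic and 85.7% of the diabetic list. Of the 2499 lower probes, 1434 could be tested and 859 (59.9%) were called lower again, against a background of 23.8%, which is 34.4% of the non-diabetic and 93.8% of the diabetic list. In the opposite direction, 1 of the higher and 2 of the lower probes were called. The shares depended on the regions and on the filter. Without diabetic neuronal region 2, 738 of 1373 higher (53.8%) and 907 of 2095 lower probes (43.3%) were called again. Without region 1 the shares were 47.7% and 38.8%, and without region 3 they were 47.6% and 38.9%. More probes entered the tests without a region, and the backgrounds fell too, to between 9.95% and 12.5% called higher and between 14.1% and 14.2% called lower. With no count filter 30.6% of the higher and 37.2% of the lower probes were called again, against backgrounds of 3.75% and 5.24%. The main filter keeps a probe with enough counts in 1 group, so a low probe enters mainly through the group where it is higher. The 71.9% and 59.9% are therefore partly set by the filter. Without a filter, scaled counts of the diabetic regions kept the sign for 1760 of 2239 higher (78.6%) and 2368 of 2499 lower probes (94.8%). The unfiltered median log2 difference of all probes there was -0.14, which favours the lower sign. The share of each sign over all probes was not computed.

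The share called again rose with the size of the non-diabetic difference. Among higher probes that could be tested, 132 of 316 were called again where the difference was at most 2-fold, 272 of 344 between 2-fold and 4-fold, 130 of 131 between 4-fold and 8-fold, and 124 of 124 above. Among lower probes the numbers were 82 of 434, 410 of 614, 202 of 218 and 165 of 168. The backgrounds of 20.0% and 23.8% cover all probes tested, so they include the probes of the lists. The lists held 658 of the 768 higher and 859 of the 916 lower diabetic calls. The 18.9% of the smallest lower differences can therefore not be read as fewer than among probes outside the list. Without diabetic neuronal region 2 the higher probes gave 143 of 549, 324 of 546, 146 of 153 and 125 of 125, and the lower probes 90 of 656, 427 of 948, 227 of 292 and 163 of 199. The median log2 difference of the higher probes tested was 1.29 in non-diabetic and 1.40 in diabetic mice, and that of the lower probes -1.37 and -1.18. These medians cover only probes that passed the diabetic filter, which favours large diabetic differences among low probes. Over the whole lists the non-diabetic medians were 1.06 and -1.25. Across the 3845 probes tested in both conditions the log2 differences had a Pearson correlation of 0.93 and a Spearman correlation of 0.90, and 0.88 and 0.82 over 7005 probes without region 2. Probes are not independent replicates, and the regions share a plate and a sequencing run.

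**Figure D5:**
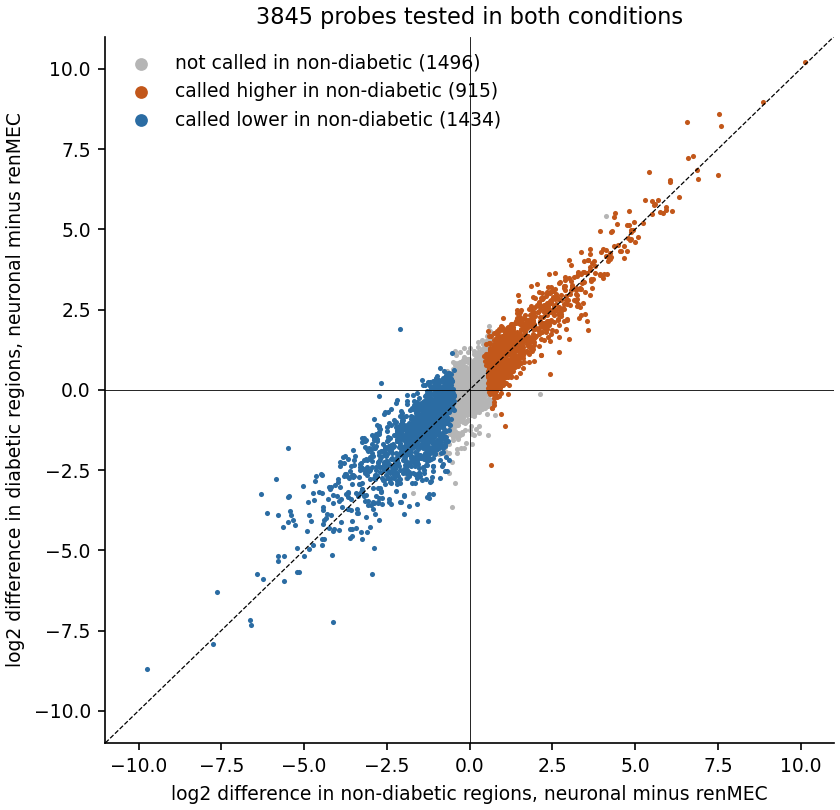
Log2 difference of neuronal over renMEC regions in diabetic mice (vertical axis) against that in non-diabetic mice (horizontal axis) for the 3845 probes tested in both, with each point 1 probe, coloured by its non-diabetic call, and a dashed line of equal differences. The points run along this line on both sides of 0, from RTS0080792 at the lower left to RTS0075449 at the upper right.

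The named probes kept their direction in the diabetic regions, which did not choose them. The log2 difference was 8.95 with a standard error of 0.37 for RTS0067937 and 10.21 with a standard error of 0.41 for RTS0075449, each with an adjusted p of 1.6e-16 by edgeR. Without region 2 these differences were 9.05 and 10.46. For RTS0061890 it was -6.30 with a standard error of 0.39 and an adjusted p of 3.0e-13 by edgeR, and without region 2 it was -6.10. RTS0080792 varied most, with 5653, 223 and 3952 counts in diabetic renMEC regions 1, 2 and 3. Region 2 of these was far below the other two, and the log2 difference of -8.70 had a standard error of 1.60 and an adjusted p of 0.012 by edgeR. That call was lost without the count filter (adjusted p of 0.050 by edgeR) and without each diabetic neuronal region in turn (0.070, 0.079 and 0.078).

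Few probes passed a test for a neuronal against renMEC difference that differed between diabetic and non-diabetic mice. With 3 regions per group and 75th percentiles of 4 to 7 counts in the diabetic neuronal regions, a probe that did not pass may still differ. Of 11069 probes tested for this interaction in the 12 regions, 20 passed at an adjusted p under 0.05 by edgeR (0.181%). In diabetic mice the signed neuronal over renMEC log2 difference was higher for 15 (0.136%, called larger here) and lower for 5 (0.0452%, called smaller). At an unadjusted p under 0.05 by edgeR there were 449 larger and 494 smaller. For the 15, the median log2 difference of scaled counts was -2.32 in non-diabetic and -0.46 in diabetic mice, a narrower gap. For the 5 it was 0.65 and -2.24, a wider gap of the opposite sign. Among the 15, 14 had been called lower in non-diabetic neuronal regions, beside 17.8% of all probes tested, but the same regions entered the interaction and a larger diabetic difference favours such calls. In diabetic mice 12 of the 15 could be tested, of which 3 were called higher and 4 lower. For the 15, the median renMEC level was 104 scaled counts in non-diabetic and 34.5 in diabetic mice, beside 18.3 and 24.8 in neuronal regions. The 5 rested on low levels, with medians of 11.5 scaled counts in non-diabetic and 3.84 in diabetic neuronal regions, and of 5.87 and 15.3 in renMECs. The 4 named probes did not pass, with RTS0061890 the closest (log2 1.32, adjusted p = 0.46 by edgeR). The count fell to 7 without non-diabetic neuronal region 2 and to 10 without non-diabetic neuronal region 1, non-diabetic renMEC region 3 or diabetic neuronal region 3, and it was 23 without diabetic neuronal region 2. The split turned to 9 larger and 16 smaller with total-count scaling.

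The diabetic heart regions of the same plate had not entered the choice of any probe. The 658 probes higher in neuronal regions in both conditions had a median level of 7.73 scaled counts in them, against 31.4 in diabetic neuronal regions and 7.97 in diabetic renMECs, the values that chose the probes. For the 859 probes lower in both conditions the median was 11.8 scaled counts in the heart, against 6.39 in diabetic neuronal regions and 25.9 in diabetic renMECs. Over all 3845 probes tested the heart median was 10.4. With the calls made without diabetic neuronal region 2 the heart medians were 7.46 for 738 higher and 10.4 for 907 lower probes.

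In retMECs, the CD31+ regions of the retina itself, the named neuronal probes were counted at intermediate and uneven levels. RTS0067937 ranged from 26.8 to 278 scaled counts in non-diabetic and from 4.88 to 203 in diabetic retMEC regions, and RTS0075449 from 28.8 to 498 and from 73.2 to 541. In carMECs their means were 6.40 and 7.07 scaled counts. The retMEC values lay below every neuronal region, and for RTS0075449 above every renMEC region. Those regions were on the other plate, so that retina and plate cannot be told apart in these values.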

How the data were processed

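The authors deposited 1 list of probe counts per region. Their software, GeoMx NGS Pipeline 2.3.4 in the submitters' processing notes, matched barcode reads to probes and counted each unique molecular identifier once. The notes name the mm10 build. The values are whole counts, not scaled, and a probe missing from a region's list was taken as 0. No retMEC region lists 11 of the 20186 probes, and whether these had been removed from that plate is not given in the sources used here. All other values were computed here in R 4.3.3 and Python 3.11.15.

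The test was edgeR 4.0.16 (quasi-likelihood, robust) on the counts of the 6 regions compared, scaled by upper-quartile factors (75th percentile, all probes kept), filterByExpr at a minimum of 10 counts and Benjamini-Hochberg adjustment over the probes tested. The interaction was fitted on 12 regions. Calls of the non-diabetic comparison were then looked up among those of the same test on the 6 diabetic regions, as shares of the probes tested there. Depth limits precision: a 75th percentile of 11 counts leaves single low probes to counting error. Replicates differed beyond sampling noise by a chi-square per degree of freedom of 1.06 to 2.04, so no region was counted as a repeat. Log2 profiles used a pseudocount of 1. The named probes were the 2 higher and the 2 lower with the smallest p among probes whose groups did not overlap. Cell type marker lists were drawn up, but none was tested because probe numbers pair with no symbol, and no sequence is printed for the same reason. The members and lists were chosen with earlier results of these data known. Alternatives were TMM, total-count scaling, DESeq2 1.42.0, other filters, thinning to the lowest total, a test against 1.5-fold, the methods' t-test on scaled counts, a replicate block, models of 18 and 24 regions, and leaving out each region. The fits were tested on simulated data. Coordinates and slides of the regions were not used here.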

Additional observations from a re-analysis of the deposited data

Results flagged for a closer look

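The neuronal minus renMEC difference in the share of counts held by the 100 most abundant probes was 10.864 percentage points larger in diabetic than in non-diabetic mice, and the regions of the groups compared did not overlap within either condition. It was flagged because an exact permutation test of condition within cell type gave p = 0.005, the smallest that 400 arrangements can give, and it lay between 9.98 and 11.6 when each region was left out. The null of that test is no effect of condition in either cell type. Counts thinned to the lowest total gave 10.6 with the same p in the exact permutation test. Mean total counts were lower in both diabetic groups, at 136754 against 468437 in neuronal and 302855 against 761372 in renMEC regions. The cause of the difference was not tested.

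A difference between conditions also flagged 20 of the 11069 probes of the interaction test by edgeR. The signed neuronal over renMEC log2 difference was higher in diabetic mice for 15 and lower for 5. Its median on scaled counts moved from -2.32 to -0.46 for the 15, a narrower gap, and from 0.65 to -2.24 for the 5, a wider one. The number of such probes changed with the method and when single regions were left out, between 5 and 50.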

How the results depend on the processing

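Of the 4738 calls in non-diabetic mice, the number moved to 2875 with DESeq2, 1679 with at least 10 counts in every region (of 3291 probes), 2824 with thinned counts, 2481 against 1.5-fold and 1477 by the methods' t-test after Benjamini-Hochberg adjustment (4468 before). Probes higher in neuronal regions numbered 3728 with total-count scaling, 1015 with DESeq2, 661, 1106, 981 and 613 under the other 4 of these in the same order, and 1483 to 2069 when each region was left out. Probes lower numbered 1018 with at least 10 counts, 1500 against 1.5-fold and 864 by the adjusted t-test.

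In diabetic mice the 1684 calls became 324 with at least 10 counts in every region, 572 with thinned counts, 3050 by the methods' t-test and 149 after adjustment. The share of calls higher in neuronal regions changed as well, from 45.6% of the 1684 to 76.9%, 53.7%, 34.1% and 58.4% in the same order. The 20 interaction calls became 38 with TMM, 50 with DESeq2, 42 with at least 10 counts, 8 in the model of 24 regions, 5 with thinned counts, and 7 to 27 without each region. Fewer probes were tested with the stricter filter and after thinning; other causes were not tested.

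The share of counts in the 100 most abundant probes, over both conditions together, was 1.11 percentage points higher in neuronal regions (exact permutation test, p = 0.57). It turned to -0.068 for the 10 most abundant (exact p = 0.955) and to -0.53 for the 1000 most abundant (exact p = 0.805). Same-numbered regions did not deviate together, with correlations from -0.031 to 0.0072 in non-diabetic and from 0.00030 to 0.013 in diabetic mice. Regions of a shared mouse need not deviate together across organs, so this does not settle whether the numbers pair regions. With the replicate block there were 4196 calls in non-diabetic mice, 1626 in diabetic mice and 22 for the interaction. For the 4 named probes 117 of 121 values under alternatives kept direction and threshold, 4 lost the threshold and 0 reversed. The non-diabetic values among these refit the regions that chose the probes, so they are no check on the choice. All 4 losses were of RTS0080792 in diabetic mice, where 11 values kept the threshold. Depth limits single probes under 10 scaled counts.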
